A study of Mus musculus with 12 samples.

Results

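The 9 genes described here, Pdk4, Angptl4, Plin2, Cpt1a, Ucp2, Ucp3, Fabp3, Cd36 and Pparg, link the lipid-sensing PPAR receptors to the choice between glucose and fatty acids as fuel. They were listed by name, and each was read at the probe set annotated with exactly that symbol, or the one with the highest mean where there were several. Named probe sets matched 8 of the 9 genes, among 22180 genes in all. Ucp2 was not analysed here.

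RNA came from primary aortic smooth muscle cells of C57BL/6J mice, at passage 3 to 4, grown in DMEM with 10% fetal calf serum. All groups shared these conditions, and the only difference given between them was the glucose of the medium. It was 0.3 g/l (1.7 mM) in 6 samples and 4.5 g/l (25 mM) in the other 6. The exposure lasted 14 days by the series text and 1 week by the sample labels. Each sample was hybridised to its own Affymetrix mouse whole-transcript array, and replicates were numbered 1 to 6 in each group. Nothing in the labels says that replicates came from separate animals or cultures, so a p-value here covers the scatter of these samples alone, and that scatter may be technical.

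PPARs are nuclear receptors that fatty acids activate. They pair with RXR receptors, bind direct repeats of the letters AGGTCA and recruit coactivators to genes of lipid uptake, storage and oxidation. When fatty acids are the main fuel, such genes are known to rise together: PDK4 shuts the pyruvate dehydrogenase complex, CPT1A opens mitochondria to long-chain fatty acids, PLIN2 coats lipid droplets, and ANGPTL4 restrains lipoprotein lipase. In vascular smooth muscle, PPARG is known for restraining proliferation and vascular tone.

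Values are log2 RMA values, a summary of probe brightness on a log2 scale, so a difference of 1 is a doubling. Differences are 4.5 minus 0.3 g/l, given with the standard error (SE) from limma, fitted over all genes, and with p-values adjusted by the Benjamini-Hochberg method over all of them. A gene was called at an adjusted p under 0.05. In this fit 15.5% of all genes were called, 7.01% higher and 8.52% lower at 4.5 g/l, and for 6.40% of genes the 6 arrays of one glucose level did not overlap the 6 of the other. The median difference of all genes was -0.00691.

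The 8 measured genes did not move as a block between the glucose levels. Pdk4 rose at 4.5 g/l, Pparg fell, and the other 6 did not pass the test. An unadjusted p under 0.05 (limma) was found for 5 of the 8, but also for at least 6047 of all 22180 genes. The median difference of the 8 was -0.09. These 2 called genes were also the only ones of the 8 whose groups did not overlap. The direction of Pdk4 was opposite to that of Pparg, and Cpt1a and Cd36 had positive differences while Plin2, Angptl4 and Fabp3 had negative ones. In RNA from whole cultures, fewer cells of a type and less RNA per cell cannot be told apart.

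The bases before the transcription starts of the called genes are shown because the PPAR half-site can be looked for in them. RefSeq's promoter table (GRCm38.p6) held 8 of the 9 listed genes, with 10 windows in all, cut here to the 250 bases before the start. Pdk4 had 1 window, chr6:5496279-5496528 on the minus strand, and Pparg had 3 on the plus strand, chr6:115360894-115361143, chr6:115362099-115362348 and chr6:115421816-115422065. Each is printed 5′ to 3′ on the gene's strand, and capitals mark the half-site AGGTCA, searched also as TGACCT.
Pdk4: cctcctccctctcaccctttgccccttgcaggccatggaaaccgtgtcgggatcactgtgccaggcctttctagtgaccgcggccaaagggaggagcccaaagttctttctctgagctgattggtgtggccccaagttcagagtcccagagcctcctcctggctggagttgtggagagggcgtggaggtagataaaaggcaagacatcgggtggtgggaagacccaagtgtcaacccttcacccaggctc
Pparg, window 1: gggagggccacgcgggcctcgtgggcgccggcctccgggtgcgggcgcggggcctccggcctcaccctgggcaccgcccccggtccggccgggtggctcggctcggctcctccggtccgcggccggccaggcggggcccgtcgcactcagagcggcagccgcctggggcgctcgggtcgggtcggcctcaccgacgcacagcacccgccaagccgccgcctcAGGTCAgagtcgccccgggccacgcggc
Pparg, window 2: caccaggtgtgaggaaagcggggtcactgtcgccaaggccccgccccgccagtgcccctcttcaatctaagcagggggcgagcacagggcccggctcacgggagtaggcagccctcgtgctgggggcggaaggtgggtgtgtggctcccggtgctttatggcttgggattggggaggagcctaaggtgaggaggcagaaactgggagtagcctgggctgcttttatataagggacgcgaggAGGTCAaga
Pparg, window 3: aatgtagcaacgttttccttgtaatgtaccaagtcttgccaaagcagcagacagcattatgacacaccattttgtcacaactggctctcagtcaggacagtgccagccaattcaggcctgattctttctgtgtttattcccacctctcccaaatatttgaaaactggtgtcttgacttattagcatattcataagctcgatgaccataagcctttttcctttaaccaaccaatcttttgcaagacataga
Pdk4 held no copy of the half-site in its window. Pparg held one in its first window, beginning 28 bases before the start, and one in the second, beginning 9 bases before it, and none in the third. The same letters, on either strand, stood in the windows of Plin2, Cd36 and Cpt1a (once each) and of Ucp3 (in 2 places), and in 14.0% of all 32851 promoter windows of that length. The full repeat with 1 base between the copies, AGGTCANAGGTCA or its reverse complement, was in none of the 10 windows, nor was the looser AGGNCANAGGNCA. They stood in 0.0335% and 0.338% of all windows, so rarely that their absence from 10 windows decides nothing. The FOXO core GTAAACA (3.17% of windows, both strands) and the E-box CACGTG (6.02%) were not found in the 10 windows either. A match in a window is a description of letters and not a binding site. Bases beyond the 250 were not searched, and Angptl4 had no window.

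**Figure D1:**
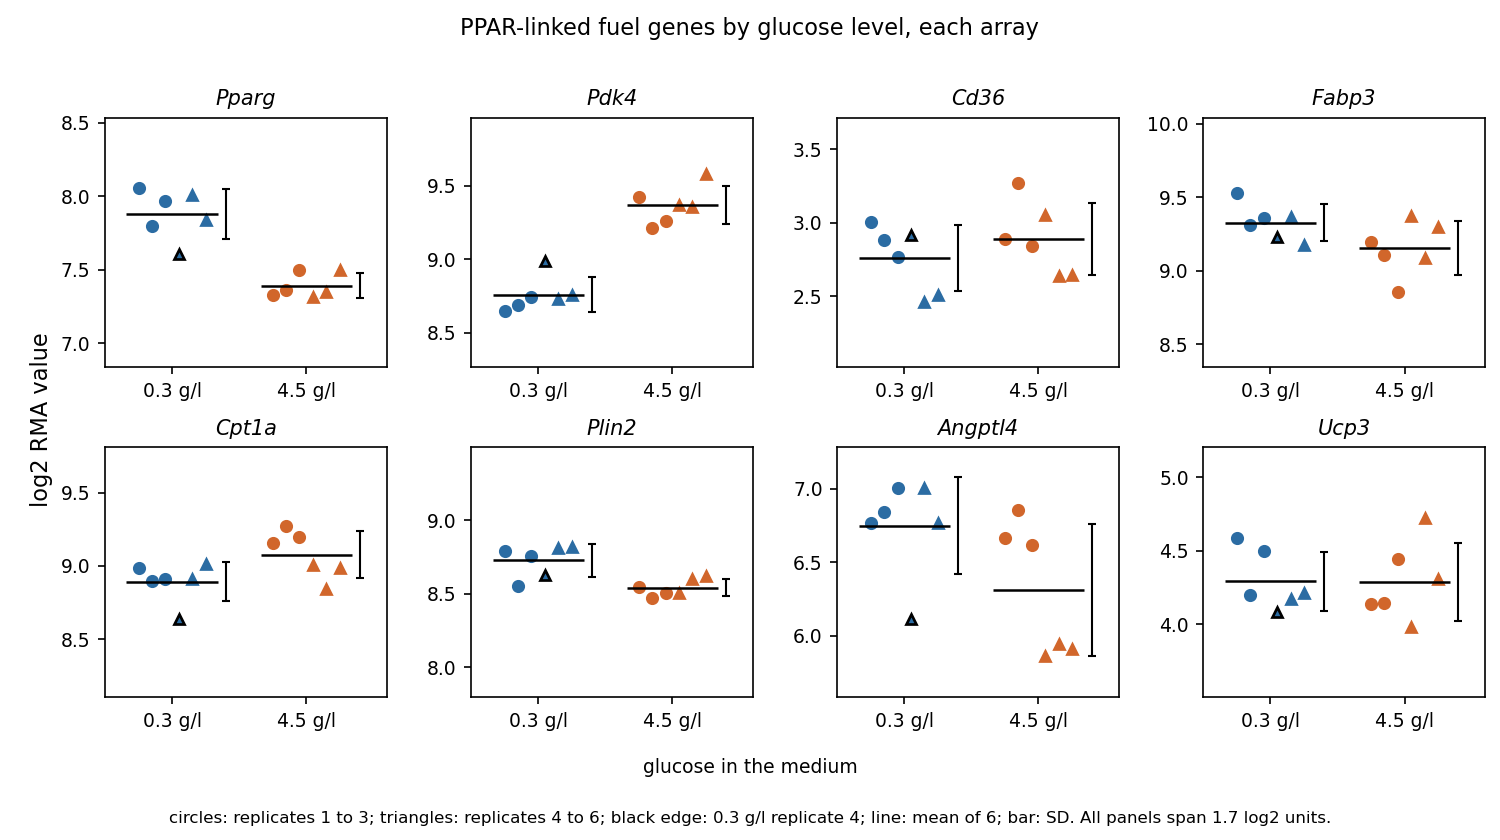
Log2 RMA values of the 8 genes on each of the 12 arrays at 0.3 g/l (blue) and 4.5 g/l (orange) glucose, with the mean and SD of each group of 6; every panel spans the same number of log2 units. The groups are apart for Pparg (7.88 against 7.39) and Pdk4 (8.76 against 9.37) and overlap in the other 6 panels.

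One array of the low-glucose group stood apart from the rest. Replicate 4 at 0.3 g/l correlated better with a 4.5 g/l array (r = 0.992 over genes) than with any of its own group (0.987), and scored 17.2 on the first principal component, where its group's other arrays scored -30.2 to -24.4 and those at 4.5 g/l 12.5 to 26.2. The cells were checked against marker lists. Smooth muscle markers were measured for 10 of 10 genes, and 8 were called higher at 4.5 g/l; their mean was 8.74 to 8.91 on the 0.3 g/l arrays other than replicate 4, 10.00 on replicate 4 and 10.51 to 10.77 at 4.5 g/l. Endothelial markers, 12 of 12 measured and none below the lower 25% bound of all gene means (4.20), had a mean of 7.72 to 7.77 on the 0.3 g/l arrays without replicate 4 and 7.22 on that array. At 4.5 g/l it was 7.69 to 7.83 on replicates 1 to 3 and 7.02 to 7.04 on replicates 4 to 6. One of the 12, Emcn, was called, and was lower at 4.5 g/l. Adipocyte markers (8 of 10 measured, 4.72 to 5.04 over all 12 arrays) and macrophage markers (12 of 12, 4.70 to 4.93) had no called gene; 1 of the 8 and 4 of the 12 lay below that bound. Fibroblast markers (9 of 10 measured, 1 below the bound) had a mean of 5.46 to 5.64 at 0.3 g/l, 5.514 to 5.598 on replicates 1 to 3 at 4.5 g/l and 5.22 to 5.33 on replicates 4 to 6; 1 of the 9, Cd34, was called, with a difference of -1.02 (adjusted p = 0.000195). Cardiac and skeletal muscle markers (10 of 10, none below the bound) had a mean of 5.19 to 5.41 at 0.3 g/l without replicate 4, 5.62 on replicate 4 and 5.43 to 5.74 at 4.5 g/l; 2 of the 10, Actc1 and Actn3, were called higher, by 0.50 and 0.38. The part of such cells in the results that follow was not tested.

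Pparg encodes the receptor of the set that drives lipid storage programmes. Its values (probe set 17461942) ran from 7.61 to 8.06 at 0.3 g/l, with a median of 7.90, and from 7.31 to 7.50 at 4.5 g/l, with a median of 7.35. Every array at 4.5 g/l was below every array at 0.3 g/l, and the lowest of the 0.3 g/l arrays was replicate 4. The mean fell from 7.88 ± 0.17 (SD, n = 6) to 7.39 ± 0.09, a difference of -0.49 ± 0.08 (SE), or 1.40-fold lower, with a 95% confidence interval from -0.66 to -0.32 (limma, adjusted p = 0.00120). The difference was -0.54 without replicate 4 at 0.3 g/l, -0.55 over replicates 1 to 3 alone and -0.43 over replicates 4 to 6 alone. In that last comparison it was not called (adjusted p = 0.179), and over all alternatives the adjusted p ran from 3.86e-05 to 0.179. Over replicates 1 to 3 the adjusted p was 0.00962 (limma). Arrays with low Pparg, including the lowest at 0.3 g/l, were those with high smooth muscle markers. The part of smooth muscle and endothelial markers in the difference was not tested.

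Ppara, the receptor best known from liver, and Ppard, the widely expressed one, did not pass the test. Ppara averaged 4.78 at 0.3 g/l and 4.68 at 4.5 g/l (adjusted p = 0.545), and Ppard differed by -0.13 ± 0.07 (adjusted p = 0.279). Of the obligate RXR partners, Rxra differed by 0.12 (adjusted p = 0.491) and Rxrg by -0.11 (adjusted p = 0.67), and neither was called. Rxrb was called lower, by -0.27 ± 0.07 (limma, adjusted p = 0.024). Pparg was thus the single PPAR receptor past the threshold, but the difference between the 3 receptors was not tested. Among all 18 measured genes of receptors, RXR partners and cofactors, 1 was higher, 4 were lower and 13 were not called, with a median difference of -0.07.

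Of the cofactors, Pprc1, a relative of the PGC-1 coactivators, fell. It ranged from 7.69 to 7.84 at 0.3 g/l (median 7.81) and from 7.41 to 7.54 at 4.5 g/l (median 7.47), with no overlap, and differed by -0.32 ± 0.05 (adjusted p = 0.00132). Med1, the Mediator subunit that nuclear receptors contact, differed by -0.22 ± 0.06 (adjusted p = 0.0213). Its call was lost in 6 of 26 alternatives, among them the omission of replicate 1, 3 or 6 at 0.3 g/l, with adjusted p-values of 0.0527, 0.0516 and 0.0515. Nrip1, a corepressor of nuclear receptors, rose by 0.29 ± 0.08, or 1.23-fold (adjusted p = 0.0193). Ppargc1a and Ppargc1b, the PGC-1 coactivators of oxidative metabolism, did not pass the test: Ppargc1b differed by 0.10 (adjusted p = 0.429), and Ppargc1a by 0.00195 (adjusted p = 0.995) at a mean of 3.73 in both groups, below the bound on dim genes. The sign of the Ppargc1a difference turned under all 3 scalings tried.

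Pdk4 encodes the pyruvate dehydrogenase kinase that fasting and fatty acids are known to induce. Its values (probe set 17464654) ran from 8.64 to 8.98 at 0.3 g/l, with a median of 8.74, and from 9.21 to 9.58 at 4.5 g/l, with a median of 9.36. No array overlapped between the groups, and replicate 4 was the highest of the 0.3 g/l arrays. The mean rose from 8.76 ± 0.12 (SD, n = 6) to 9.37 ± 0.13, a difference of 0.61 ± 0.08 (SE), or 1.53-fold, with a 95% confidence interval from 0.45 to 0.77 (limma, adjusted p = 0.000252). It was 0.66 without replicate 4 at 0.3 g/l, 0.61 over replicates 1 to 3 (adjusted p = 0.00377) and 0.61 over replicates 4 to 6, where the adjusted p was 0.0895. Over all alternatives the adjusted p ran from 8.69e-06 to 0.0895. Smooth muscle markers were higher on the same arrays as Pdk4, replicate 4 at 0.3 g/l included; their part in the difference was not tested.

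The other kinases of the complex were examined beside Pdk4. Pdk3 rose from a median of 8.57 (8.45 to 8.85) to one of 8.85 (8.83 to 8.93), by 0.28 ± 0.07 or 1.21-fold (adjusted p = 0.0115). Pdk2 differed by 0.27 ± 0.08, also 1.21-fold (adjusted p = 0.0379), but this call was lost in 14 of 26 alternatives, among them the omission of replicate 1, 3, 5 or 6 at 0.3 g/l or of replicate 2, 3, 4 or 5 at 4.5 g/l. Pdk1 differed by 0.12 ± 0.06 and did not pass the test (adjusted p = 0.220). Pdp1, a phosphatase that reverses the kinases' action, rose by 0.22 ± 0.06 or 1.16-fold (adjusted p = 0.0214), with groups that did not overlap. This call was lost in 6 of 26 alternatives, among them median centring (0.17, adjusted p = 0.0648) and the omission of replicate 1 at 0.3 g/l (adjusted p = 0.0547). In the whole list of the pyruvate dehydrogenase complex and its control, 4 of 13 measured genes were higher, none was lower and 9 were not called, with a median of 0.09. All 4 were regulators, but other regulators were not called: Pdk1, Pdp2 (-0.05, adjusted p = 0.798) and Pdpr (0.09, adjusted p = 0.551). None of the enzyme's own subunits on the list (Pdha1, Pdhb, Dlat, Dld and Pdhx) was called, with differences of -0.16, -0.12, -0.08, -0.18 and -0.17.

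**Figure D2:**
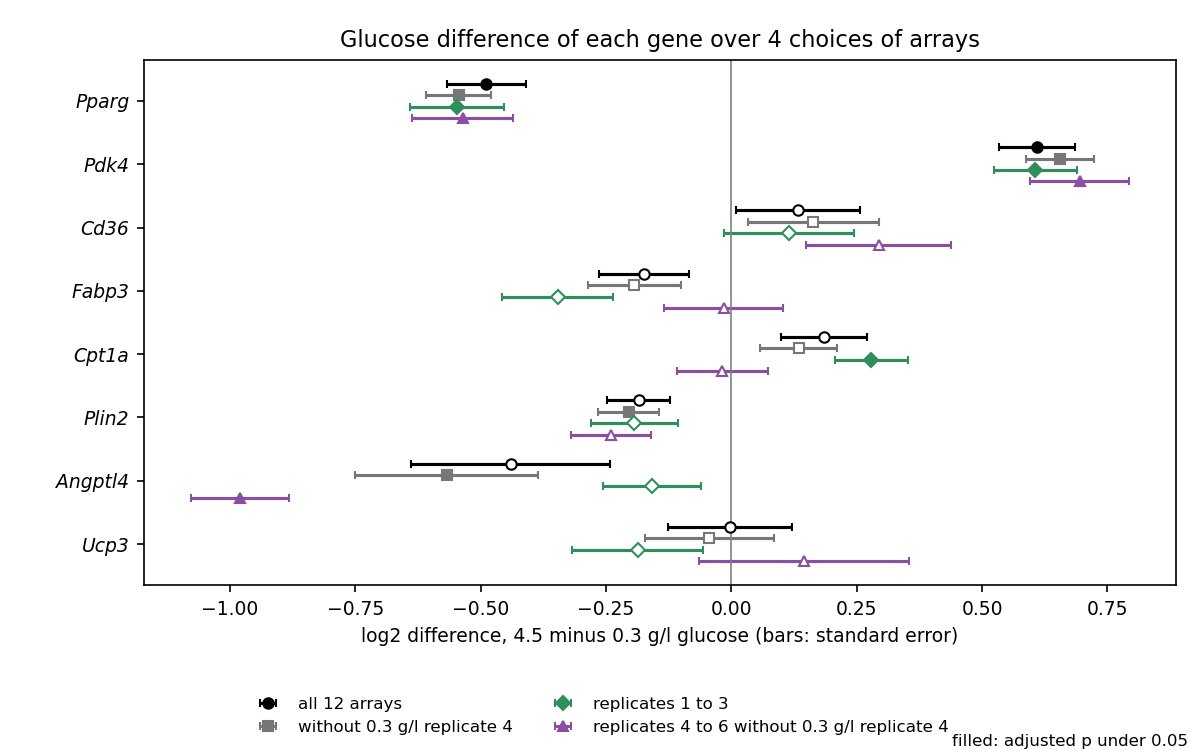
Differences in log2 RMA value, 4.5 minus 0.3 g/l, of the 8 genes with standard errors, over all 12 arrays, without 0.3 g/l replicate 4, over replicates 1 to 3, and over replicates 4 to 6 without that array; filled marks have an adjusted p under 0.05. Pparg (-0.49 over all arrays) and Pdk4 (0.61) are filled in all 4 choices shown, while Angptl4 runs from -0.16 to -0.98.

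Cd36 and Fabp3 act at the entry of fatty acids into the cell, CD36 as a surface transporter and FABP3 as the carrier in the cytosol of muscle cells. Neither passed the test. Cd36 (probe set 17445715) ran from 2.46 to 3.01 at 0.3 g/l (median 2.83) and from 2.64 to 3.27 at 4.5 g/l (median 2.87). All 12 arrays lay below the bound on dim genes, where RMA compresses differences, and the difference was 0.13 ± 0.12 with an interval from -0.13 to 0.40 (adjusted p = 0.564).

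Fabp3 (probe set 17419215) ran from 9.17 to 9.53 at 0.3 g/l (median 9.33) and from 8.85 to 9.38 at 4.5 g/l (median 9.15). The groups overlapped, with 3 of the 6 arrays at 4.5 g/l below all arrays at 0.3 g/l. Its difference was -0.17 ± 0.09, with an interval from -0.37 to 0.02 (adjusted p = 0.231). Over replicates 1 to 3 it was -0.35 (adjusted p = 0.0917) and over replicates 4 to 6 -0.00231 (adjusted p = 0.995). A second probe set named Fabp3 averaged 5.00 at 0.3 g/l and 5.12 at 4.5 g/l, a difference of the opposite sign, 0.12.

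Genes around these 2 moved in both directions. Dbi, the acyl-CoA binding protein, rose from a median of 6.12 (6.01 to 6.27) to one of 6.52 (6.44 to 6.55), by 0.36 ± 0.06 or 1.28-fold (adjusted p = 0.00129), with no overlap. Lipa, the lysosomal acid lipase that frees fatty acids from lipoprotein lipids, fell by 0.46 ± 0.10 or 1.38-fold (adjusted p = 0.00776). Acsl4, which activates polyunsaturated fatty acids to acyl-CoA, was 1.49-fold lower (-0.58 ± 0.16, adjusted p = 0.0273). This call was lost in 10 of 26 alternatives, including the omission of replicate 1, 3, 5 or 6 at 0.3 g/l or of replicate 4, 5 or 6 at 4.5 g/l. Fabp4, a carrier of adipocytes and capillary endothelium, differed by -0.14 (adjusted p = 0.768), but its 4.5 g/l arrays were split. Replicates 1 to 3 (6.68 to 6.83) lay above all 0.3 g/l arrays (5.94 to 6.66), and replicates 4 to 6 were at 5.42 to 6.00. The Fabp4 difference was 0.48 over replicates 1 to 3 (limma, adjusted p = 0.0742). Over replicates 4 to 6 without replicate 4 at 0.3 g/l it was -0.81 (limma, adjusted p = 0.0337). Fabp5 differed by -0.16 (adjusted p = 0.177). Fabp5 had 4 probe sets, which near-identical copies could share, so its value is uncertain. Of 17 measured genes of uptake, binding and activation, 1 was higher, 3 were lower and 13 were not called, and the median was -0.06.

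Cpt1a sets the rate at which long-chain fatty acids enter mitochondria. Its values (probe set 17355915) ran from 8.64 to 9.01 at 0.3 g/l, with a median of 8.91, and from 8.84 to 9.27 at 4.5 g/l, with a median of 9.08. Replicates 1 to 3 at 4.5 g/l (9.15 to 9.27) lay above all 0.3 g/l arrays, whereas replicates 4 to 6 (8.84 to 9.01) did not, and replicate 4 was the lowest at 0.3 g/l. The difference of 0.18 ± 0.09, with an interval from 0.00145 to 0.37, did not pass the test (unadjusted p = 0.0484, adjusted p = 0.178, limma). It was called over replicates 1 to 3 alone (0.28, adjusted p = 0.0461), and over replicates 4 to 6 without replicate 4 at 0.3 g/l its sign turned (-0.018, adjusted p = 0.927). The adjusted p over all alternatives ran from 0.0461 to 0.927.

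Cpt2, the inner-membrane partner of CPT1, had groups that did not overlap (8.26 to 8.45 against 8.46 to 8.62) but a difference of 0.13 ± 0.06 that did not pass (adjusted p = 0.133). Acaa2, the thiolase of the last step of beta-oxidation, rose by 0.28 ± 0.06 (adjusted p = 0.00511), from a range of 7.24 to 7.48 to one of 7.58 to 7.70. Earlier in the same cycle Echs1, the enoyl-CoA hydratase, fell by 0.50 ± 0.10 or 1.42-fold (adjusted p = 0.00327), and Eci1, an isomerase for unsaturated chains, fell by 0.31 ± 0.06 (adjusted p = 0.00287). In all, 25 genes of mitochondrial fatty acid oxidation were measured, of which 2 were higher, 4 lower and 19 not called, with a median of 0.08. The higher genes were Acaa2 and Hadha (0.18 ± 0.06, adjusted p = 0.0478). The lower ones were Echs1, Eci1, Acot2 and Acacb (-0.38 ± 0.10, adjusted p = 0.0162).

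Acot2, a mitochondrial thioesterase that releases fatty acids from acyl-CoA, had the largest difference of the genes on the pathway lists. It ran from 11.18 to 12.65 at 0.3 g/l (median 12.47) and from 9.85 to 10.61 at 4.5 g/l (median 10.33). Even replicate 4 at 0.3 g/l, the lowest of its group, was above every array at 4.5 g/l. The mean fell from 12.31 ± 0.56 (SD, n = 6) to 10.30 ± 0.27, a difference of -2.01 ± 0.22 (SE), or 4.02-fold lower (limma, adjusted p = 0.000111). Acot1, its close copy, averaged 4.18 and 3.88, below the bound on dim genes, and was not called (adjusted p = 0.0537); probes of such paralogs can share signal, so the split between them is uncertain.

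In peroxisomes, which shorten very long and branched chains, 1 of 12 measured genes was higher, 2 were lower and 9 were not called, with a median of -0.05. Acox2, the oxidase of branched-chain acids and bile acid precursors, fell from a median of 5.74 (5.09 to 5.90) to 4.68 (4.58 to 4.82), a difference of -0.96 ± 0.12, or 1.94-fold lower (adjusted p = 0.000271). Pex11a, a peroxisome division factor, fell by 0.46 ± 0.11 or 1.37-fold (adjusted p = 0.0136). Ech1, a dienoyl-CoA isomerase, differed by 0.25 ± 0.07 or 1.19-fold (adjusted p = 0.0283), a call lost in 13 of 26 alternatives, including the omission of replicate 1, 2, 3, 5 or 6 at 0.3 g/l or of replicate 3, 5 or 6 at 4.5 g/l.

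**Figure D3:**
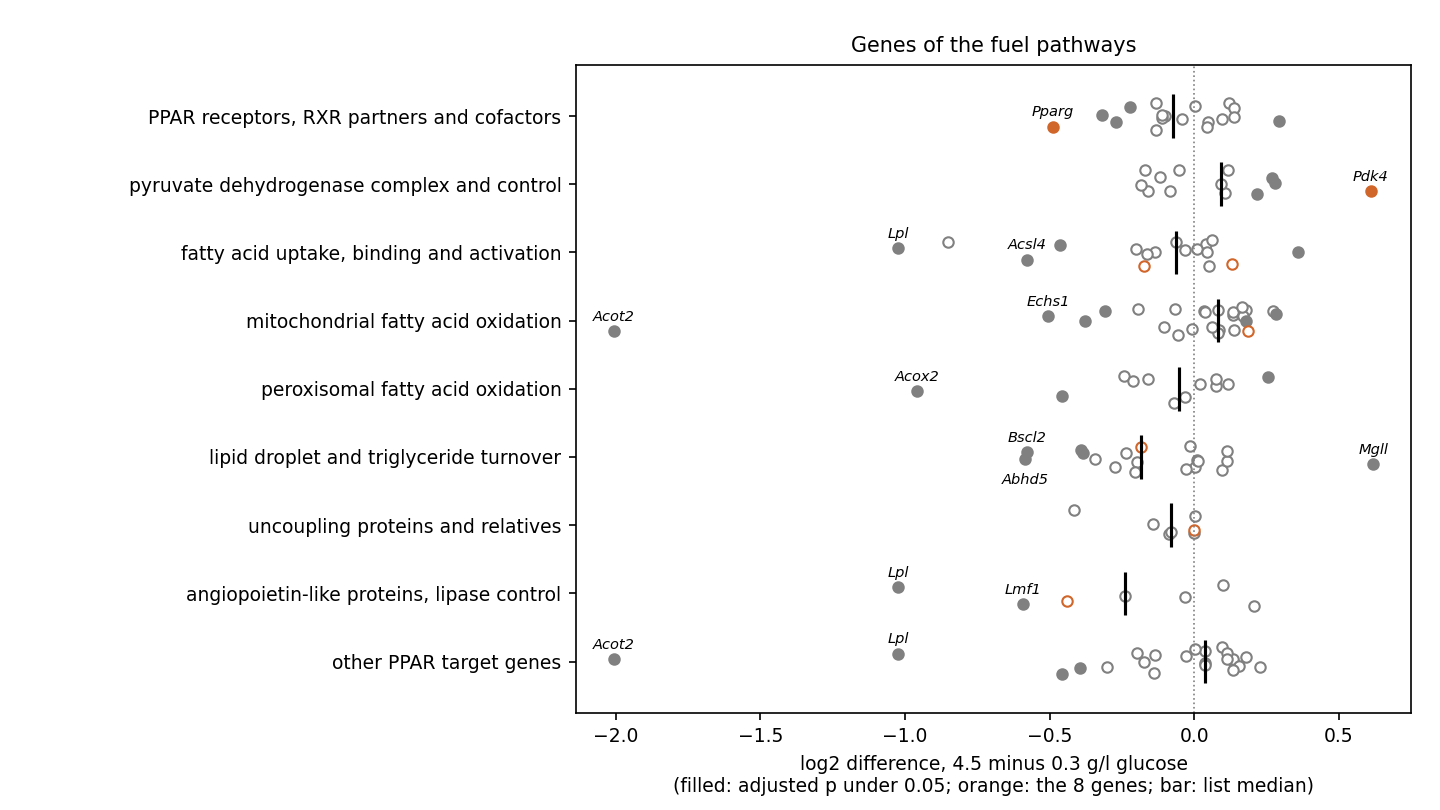
Differences in log2 RMA value, 4.5 minus 0.3 g/l, of every measured gene of 9 fuel pathway lists (rows); filled points have an adjusted p under 0.05, orange points are the 8 genes, and bars are list medians. Most genes lie near 0, list medians run from -0.24 to 0.09, and the called genes farthest from 0 are Acot2 (-2.01), Lpl (-1.02), Acox2 (-0.96), Mgll (0.62) and Pdk4 (0.61); Vldlr (-0.85, adjusted p = 0.062) was not called.

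Plin2, the perilipin found on lipid droplets of most cells, had values (probe set 17426981) from 8.56 to 8.82 at 0.3 g/l, with a median of 8.78, and from 8.47 to 8.62 at 4.5 g/l, with a median of 8.53. At 4.5 g/l, 4 of 6 arrays were below all arrays at 0.3 g/l, whose lowest values were replicates 2 (8.56) and 4 (8.63). The mean was 8.73 ± 0.11 (SD, n = 6) at 0.3 g/l and 8.54 ± 0.06 at 4.5 g/l. This difference of -0.18 ± 0.06 (SE; interval from -0.32 to -0.05) missed the threshold (limma, adjusted p = 0.0625). It passed in 6 of 26 alternatives, among them the fit without replicate 4 at 0.3 g/l (-0.20, adjusted p = 0.0261) and that without replicate 2 (-0.22, adjusted p = 0.0327). The adjusted p ran from 0.0106 to 0.428 over the alternatives.

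Plin3 and Hilpda, a second ubiquitous perilipin and a droplet protein that inhibits lipolysis, had differences of -0.27 (adjusted p = 0.0719) and -0.23 (adjusted p = 0.0588). Without replicate 4 at 0.3 g/l both were called, Plin3 at -0.35 (adjusted p = 0.00181) and Hilpda at -0.29 (adjusted p = 0.00542). Among the lipases, Mgll, which cleaves monoglycerides, rose from a median of 8.57 (8.36 to 9.10) to 9.26 (8.91 to 9.50), by 0.62 ± 0.13 or 1.54-fold (adjusted p = 0.00641). Abhd5, the activator of the main triglyceride lipase, fell by 0.58 ± 0.14 or 1.5-fold (adjusted p = 0.0118). In droplet and triglyceride assembly, Bscl2 (seipin) fell by 0.58 ± 0.13 (adjusted p = 0.00969) and Agpat2 fell by 0.39 ± 0.09 (adjusted p = 0.00804). Of 19 measured genes on the droplet list, 1 was higher, 4 were lower and 14 were not called, with a median of -0.18.

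Angptl4, a secreted inhibitor of lipoprotein lipase and a well-known PPAR target, had the widest spread of the 8 genes. At 0.3 g/l its values (probe set 17343628) ran from 6.11 to 7.01, with a median of 6.81, and all arrays but replicate 4 were at 6.77 or above. At 4.5 g/l replicates 1 to 3 were at 6.62 to 6.86 and replicates 4 to 6 at 5.86 to 5.95, with a median of 6.28 for the 6. Low values were thus found on replicate 4 at 0.3 g/l and on replicates 4 to 6 at 4.5 g/l, the same 4 arrays on which the endothelial marker mean was low (7.02 to 7.22, against 7.69 or above on the other 8). The part of endothelial cells in the Angptl4 values was not tested.

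Over all 12 arrays the mean of Angptl4 was 6.75 ± 0.33 (SD, n = 6) at 0.3 g/l and 6.31 ± 0.45 at 4.5 g/l, a difference of -0.44 ± 0.20 (SE; interval from -0.87 to -0.01) that did not pass the test (unadjusted p = 0.0444, adjusted p = 0.168, limma). It was -0.16 over replicates 1 to 3 (adjusted p = 0.369) and -0.98 over replicates 4 to 6 when replicate 4 at 0.3 g/l was left out (adjusted p = 0.00228). Without that array alone the difference was -0.57 and was called (adjusted p = 0.0385). The adjusted p over all alternatives ran from 0.00228 to 0.369.

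**Figure D4:**
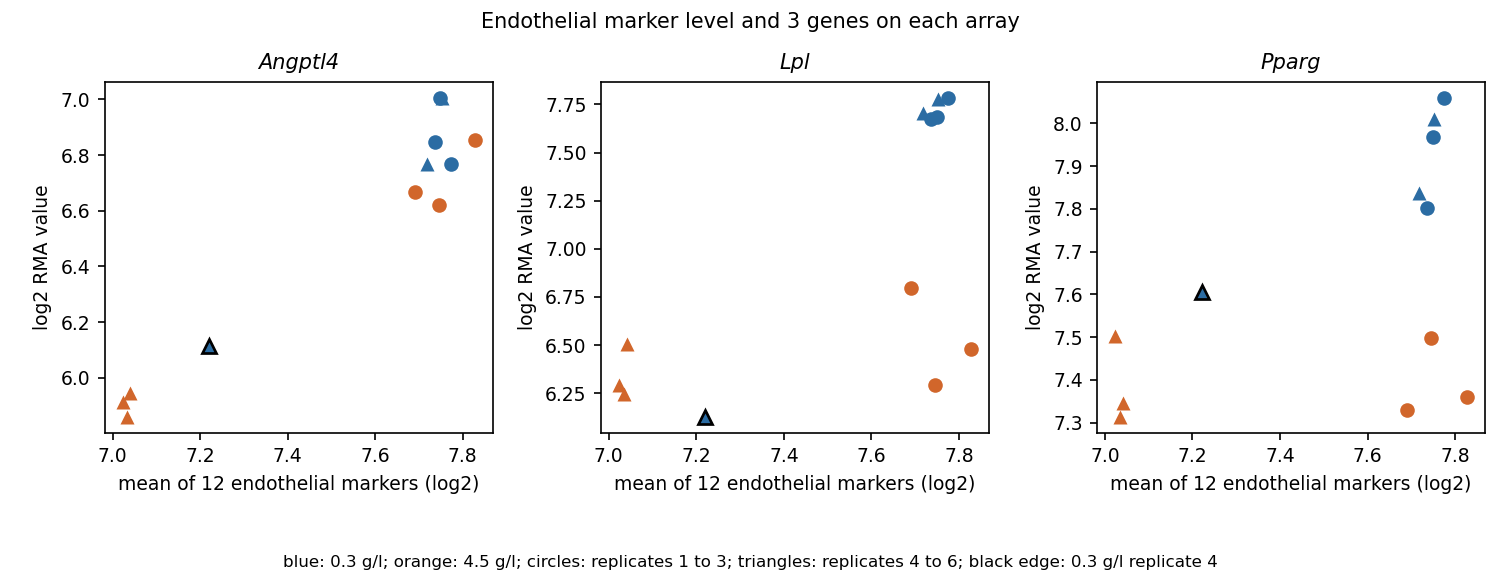
Log2 RMA values of Angptl4, Lpl and Pparg (vertical axes) against the mean log2 value of 12 endothelial markers (horizontal axes), 1 point per array; blue is 0.3 g/l, orange 4.5 g/l, triangles are replicates 4 to 6, and the black edge marks 0.3 g/l replicate 4. Angptl4 is below 6.2 on the 4 arrays with a marker mean under 7.3. Lpl is at most 6.80 and Pparg at most 7.50 on the 6 arrays at 4.5 g/l.

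Lpl, lipoprotein lipase itself, ran from 6.13 to 7.79 at 0.3 g/l (median 7.70) and from 6.25 to 6.80 at 4.5 g/l (median 6.39). The 5 arrays at 0.3 g/l other than replicate 4 were between 7.68 and 7.79, and replicate 4 was below every array of the other group. Lpl fell by 1.02 ± 0.24 or 2.03-fold (adjusted p = 0.0112), and the difference was -1.29 without replicate 4 at 0.3 g/l. By the exact rank-sum test it was not called (adjusted p = 0.213), and at a second, dimmer probe set the means differed by -0.45. Lmf1, the factor that lipase needs for folding, fell from a median of 10.08 (9.58 to 10.16) to 9.46 (9.26 to 9.49), a difference of -0.59 ± 0.09, or 1.51-fold lower (adjusted p = 0.000948), with no overlap. In the list of angiopoietin-like proteins and lipase control 7 genes were measured, with 2 lower, none higher, 5 not called and a median of -0.24.

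Ucp3, a mitochondrial carrier of skeletal muscle that PPAR ligands and fatty acids are known to induce, showed no difference that these arrays could resolve. Its values (probe set 17480729) ran from 4.08 to 4.59 at 0.3 g/l (median 4.21) and from 3.98 to 4.72 at 4.5 g/l (median 4.23). The mean of 4.29 in both groups was just above the bound on dim genes (4.20), and some arrays of each group lay below that bound. The difference was -0.00211 ± 0.12, with an interval from -0.27 to 0.26 (limma, adjusted p = 0.995), and its sign turned in 7 of 26 alternatives. None of the 7 measured uncoupling proteins and relatives was called (limma, median -0.08). An unadjusted p under 0.05 was found for 1 of them, and for at least 6047 of all 22180 genes.

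Of the remaining PPAR targets on the lists, 23 were measured, including some already described; none was higher, 4 were lower (Acot2, Fgf21, Lpl and Pex11a) and 19 were not called, with a median of 0.04. Fgf21, a hormone that PPARA induces in fasted liver, ran from 4.96 to 5.46 at 0.3 g/l (median 5.19) and from 4.57 to 4.96 at 4.5 g/l (median 4.82). It fell by 0.40 ± 0.09 (adjusted p = 0.0102). Over all lists, 117 genes other than the 8 were measured, of which 9 were higher, 18 lower and 90 not called, with a median of -0.03. Cpt1b and Acsl1, further targets, were not analysed here.

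Genes whose pattern was most like each of the 8 were found by Pearson's r of log2 values over the 12 arrays, which share their glucose groups, so that r partly follows the glucose difference. For Pdk4 these were Cap2 (r = 0.994), an actin-regulating protein, and Itga1 (r = 0.986), an integrin that binds collagen. Pparg was followed most closely by Ddx18 (r = 0.978), an RNA helicase, and Cdk4 (r = 0.9746), a kinase of the G1 phase. The closest to Angptl4 were Nox4 (r = 0.979), an NADPH oxidase, and Vcam1 (r = 0.973), an adhesion molecule. For Plin2 they were Dbf4 (r = 0.957) and Arfrp1 (r = 0.942), and for Cpt1a Pon2 (r = 0.928) and Clgn (r = 0.926). Lower values were found for Fabp3, with Ndufb11 (r = 0.897) and Desi2 (r = 0.890), for Cd36, with Hoxd3os1 (r = 0.894) and Olfml3 (r = 0.874), and for Ucp3, with Tdrd12 (r = 0.838) and Dsg1c (r = 0.837).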

How the data were processed

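Per the submitters' processing notes, the deposited log2 values, 1 for each probe set and array, were made with Affymetrix Expression Console and RMA (versions not given in the sources used here), which corrects background, quantile-normalizes arrays and summarises probes. Since RMA forces the arrays to a common distribution, differing RNA amounts per cell leave no trace, and dim genes show smaller differences than they have. The number of arrays, 6 per group, limits the precision, and array medians ran from 4.92 to 5.05. The table held 41345 probe sets, of which 23521 had 1 gene symbol in the platform annotation, 1814 had several and were not named; each of 22180 genes was represented by its probe set of highest mean.

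The glucose levels were compared by limma 3.58.1 under R 4.3.3, using lmFit and eBayes (two-sided, no block), adjusted over all genes by Benjamini-Hochberg, and the script was tested on simulated data. The 9 genes, the pathway lists and the marker lists were chosen with earlier results of these data known. Besides the listed genes, the text names fixed relatives of the pathways and up to 4 called genes of smallest p per list. It also names the 2 genes most correlated with each of the 8. Acot1, Rxrb, Rxrg, Hadha, Acacb, Pdp2, Pdpr, Vldlr, the pyruvate dehydrogenase subunits and the called marker genes were chosen after their values were seen. Alternatives were another moderation, a filter on dim genes, 3 scalings, other rules for probe sets, array weights, an exact rank-sum test, a replicate block, each array left out, and replicates 1 to 3 or 4 to 6 alone or as a block. Promoter windows were matched by symbol. Figures were drawn with matplotlib 3.10.9.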

Additional observations from a re-analysis of the deposited data

Results flagged for a closer look

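In each group of 6 arrays, for the 8 genes and the 34 other genes named by the rule, the highest or lowest array was compared with the rest by Dixon's ratio of gap to range. Its 95% critical value was exceeded in 20 of 84 groups, where chance gives about 1 in 20, and in 18 of the 20 the array was replicate 4 at 0.3 g/l. Among the 8 genes this array was apart for Pdk4 (8.98, others 8.64 to 8.75), Angptl4 (6.11, others 6.77 to 7.01) and Cpt1a (8.64, others 8.90 to 9.01).

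The same array was high for Rxra (8.77, others 8.20 to 8.36), Ech1 (9.12, others 8.68 to 8.83) and Mgll (9.10, others 8.36 to 8.60). It was low for Lpl (6.13, others 7.68 to 7.79), Acot2 (11.18, others 12.45 to 12.65), Acsl4 (7.81), Abhd5 (7.90), Lipa (10.37), Lmf1 (9.58), Bscl2 (9.01), Echs1 (8.34), Plin3 (8.38), Pex11a (5.91), Agpat2 (8.12) and Pprc1 (7.69). For Pdk4, Lpl, Acot2, Ech1, Mgll and the others of these 18 genes that were called, the array lay on the side of the 4.5 g/l group. The 2 other cases were Fabp4 in replicate 2 at 0.3 g/l (5.94, others 6.42 to 6.66) and Cpt2 in replicate 4 at 4.5 g/l (8.62, others 8.46 to 8.52).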

How the results depend on the processing

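Over the 8 genes and 26 alternatives (25 for Cd36), 187 alternative values kept their direction and side of the threshold, 10 newly passed it, 2 no longer passed and 8 changed sign; for the other named genes these were 778, 12, 79 and 14. The number of genes called, 3444, became 5419 with array weights, 1993 with the exact rank-sum test and 30 over replicates 4 to 6 alone, and ran from 2514 to 5295 with each array left out, the highest without replicate 4 at 0.3 g/l. The 2 of the 8 that were called became 4 with array weights, 2 to 4 with each array left out, and 0 over replicates 4 to 6 alone (limma); Pdk4 and Pparg then had adjusted p-values of 0.0895 and 0.179. The 27 other pathway genes called became 42 without replicate 4 at 0.3 g/l and 0 over replicates 4 to 6 alone. Over replicates 4 to 6 with that array left out too, 3435 genes, 3 of the 8 and 28 other pathway genes were called, and over replicates 1 to 3 alone 2900, 3 and 24. By the exact rank-sum test 11 other named genes called by limma (Pdk2, Nrip1, Echs1, Mgll, Lipa, Pex11a, Agpat2, Ech1, Abhd5, Lpl and Acsl4) missed the threshold, with adjusted p-values from 0.0724 to 0.213. The cause of these changes was not tested.

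Signs turned for small differences. With replicate 4 at 0.3 g/l left out of replicates 4 to 6, Cpt1a was -0.018, Ucp3 0.15 and Ppargc1a -0.42; with it, Ucp3 was 0.18 and Ppargc1a -0.34. With each array left out, Ucp3 ran from -0.089 to 0.059, Ppargc1a from -0.058 to 0.070 and Fabp4 from -0.25 to 0.032; Fabp4 was 0.48 over replicates 1 to 3. Ppargc1a was -0.020 with cyclic loess, -0.054 with quantile normalization and -0.042 with median centring.

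Same-numbered replicates of the groups did not deviate together (correlations of -0.05 to 0.17 for the 6 numbers; 1 of 6 correlated best with its own number). With a replicate block, 3130 genes were called, 2 of the 8 and 27 other pathway genes, not all the same ones: Med1 (adjusted p = 0.0740), Pdp1 (0.0560) and Ech1 (0.0688) were lost and Plin3 (0.0479) was gained. The adjusted p was 0.00199 for Pdk4 and 0.00487 for Pparg. Values below the bound on dim genes (Cd36, Ppargc1a, Acot1, Tdrd12 and Dsg1c among those named) are limited by signal over background. Ucp3 averaged just above that bound.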
